A study of Rattus norvegicus with 12 samples.

Results

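In the hippocampus of stressed rats, 148 genes stood higher than in unstressed rats and were back on the control side of the midpoint after albiflorin. They were chosen by their measured FPKM, a read count scaled by gene length and library size, out of the 12750 Ensembl gene rows that averaged 1 FPKM or more across 12 libraries. The whole table has 28959 rows, of which 27068 carry Ensembl rat gene IDs. A gene was a member when its lowest library of stressed, saline-treated rats lay above every library of unstressed rats and above every library of albiflorin-treated rats. In addition, the stressed mean had to be at least 1.2 times the unstressed mean, and the albiflorin mean had to lie below the midpoint of those means. The higher level under stress and the lower level under albiflorin are therefore what chose the genes. They are given as a description, and the model fits of those contrasts, printed near the end, are no evidence for either.

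Sprague Dawley rats, with a stated age of 6 to 7 weeks, gave 4 groups of 3 hippocampal libraries. Ctrl-Sal rats had no stress and received saline. CUMS-Sal, CUMS-Alb and CUMS-Flx rats went through chronic unpredictable mild stress, a schedule of varied mild stressors used as a rodent model of depression, for 5 weeks. In its last week they were given saline, albiflorin at 7 mg/kg/d or fluoxetine for 7 days. For fluoxetine the sources differ: the labels of the samples state 10 mg/kg/d, the series text 7 mg/kg/d. There was no unstressed group with either drug. Nothing in the labels states that the libraries of a group come from separate animals, so any spread between them may be partly technical.

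The hippocampus carries many receptors for glucocorticoid hormones and takes part in shutting off the hormonal stress response, and long stress is known to alter its transcription. Albiflorin is a monoterpene glycoside of peony root that has been studied as an antidepressant candidate. Fluoxetine blocks the serotonin transporter and is a standard antidepressant. The Ensembl IDs are not paired with gene names in the table or the reference used here (0 of the 148 matched), so the roles of the genes, the pathways and cell type markers, and their sequences are not given.

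The members were mostly modest in size of change and low in level. The ratio of the CUMS-Sal to the Ctrl-Sal mean had a median of 1.39 and ran from 1.2 to 5.8. It lay between 1.2 and 1.3 in 46 members, between 1.3 and 1.5 in 57, between 1.5 and 2 in 27 and at 2 or more in 18. The mean level had a median of 4.41 FPKM and ran from 1.01 to 174 FPKM, with 79 members under 5 FPKM and 18 at 20 FPKM or more. In bulk tissue a lower value cannot be told apart from fewer cells of the type that makes the transcript.

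Summed over the members, their part of each library's reads was narrow within groups and set CUMS-Sal apart. It was 0.238, 0.215 and 0.243% in Ctrl-Sal replicates 1, 2 and 3 and 0.314, 0.312 and 0.316% in those of CUMS-Sal. CUMS-Alb held 0.264, 0.260 and 0.261%, and CUMS-Flx held 0.247, 0.256 and 0.266%. Both drug groups thus lay between the other groups and overlapped each other. The CUMS-Flx libraries entered the choice only through the minimum mean of 1 FPKM over all 12 libraries. Their place was not fixed by the rule, although their reference points were.

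As a median over the members on the log2(FPKM + 0.5) scale, CUMS-Sal libraries stood 0.42, 0.45 and 0.42 above the Ctrl-Sal mean. CUMS-Alb libraries stood 0.18, 0.17 and 0.14 above it. CUMS-Flx libraries stood 0.09, 0.13 and 0.22 above it, so replicate 3 was the highest and replicate 1 the lowest. The Ctrl-Sal libraries themselves lay at 0.05, -0.11 and 0.07. Over all 12750 genes the same medians were 0.10 to 0.12 in CUMS-Sal, 0.08 to 0.12 in CUMS-Alb and 0.02 to 0.08 in CUMS-Flx, a shift of the whole table. Beside it, the 9 most abundant genes took 17.4 to 22.0% of the reads in Ctrl-Sal, 14.8 to 15.0% in CUMS-Sal, 14.6 to 15.6% in CUMS-Alb and 15.3 to 18.8% in CUMS-Flx, and their part in the members' values was not tested.

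**Figure D1:**
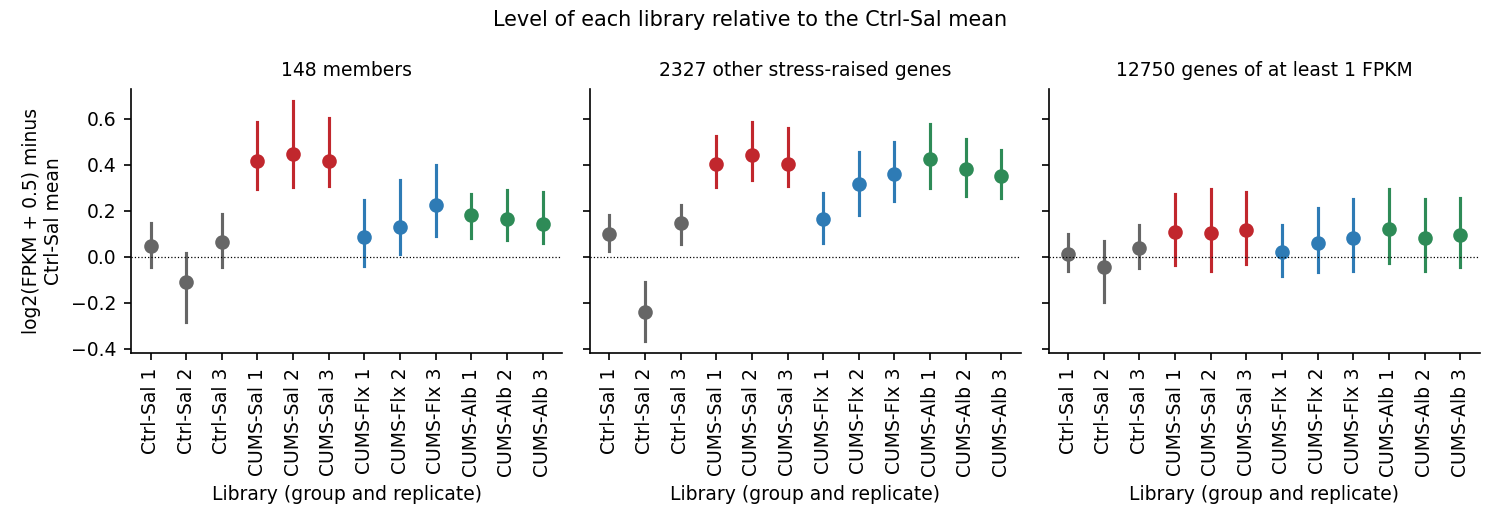
Median (points) and quartiles (lines) of log2(FPKM + 0.5) minus the Ctrl-Sal mean of each gene, for each of the 12 libraries on the x axis, over the members (left), the other stress-raised genes (middle) and all genes of at least 1 FPKM (right). Over the members the CUMS-Alb medians of 0.14 to 0.18 lie well below the CUMS-Sal medians of 0.42 to 0.45, as the rule requires, while over the 2327 other raised genes they reach 0.35 to 0.42.

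The gene with the widest gap between CUMS-Sal and the 6 libraries of the other groups in the rule was ENSRNOG00000057347, which has 1396 bp of counted length. It measured 3.69, 3.75 and 7.64 FPKM in Ctrl-Sal, 12.5, 13.4 and 12.2 in CUMS-Sal and 5.02, 5.40 and 7.73 in CUMS-Alb. In CUMS-Flx it measured 7.34, 7.28 and 4.75 FPKM. CUMS-Sal was thus high in all 3 libraries, and the other 3 groups overlapped one another. The CUMS-Sal mean was 12.7 ± 0.616 FPKM against 5.03 ± 2.26 for Ctrl-Sal, a ratio of 2.53. With the drugs it was 6.05 ± 1.47 FPKM (albiflorin) and 6.45 ± 1.48 FPKM (fluoxetine; SD, n = 3 each).

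Next by gap came ENSRNOG00000058248, a short gene of 477 bp. Its Ctrl-Sal libraries measured 1.14, 0.804 and 4.16 FPKM, and its CUMS-Sal libraries 6.03, 7.90 and 8.45. The CUMS-Alb libraries measured 3.13, 4.17 and 3.77 FPKM and the CUMS-Flx libraries 2.07, 3.89 and 3.47. Both drug groups lay within the range from the lowest Ctrl-Sal library to just above the highest, because Ctrl-Sal replicate 3 stood far above the other Ctrl-Sal replicates. These values rest on 8, 6 and 32 Ctrl-Sal reads and on 45, 58 and 62 CUMS-Sal reads.

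The most abundant member, 1021 bp long, was also highest in CUMS-Sal, here at high depth. The rule required this against Ctrl-Sal and CUMS-Alb. It measured 133, 90.2 and 182 FPKM in Ctrl-Sal, 206, 208 and 212 in CUMS-Sal, 167, 173 and 175 in CUMS-Alb and 180, 187 and 172 in CUMS-Flx. CUMS-Alb and CUMS-Flx libraries lay below all CUMS-Sal libraries. Of those 6, all but the highest CUMS-Flx library lay within the wide range of Ctrl-Sal. The largest ratio, 5.8, belonged to a 254 bp gene with 1, 3 and 5 reads without stress and 12, 21 and 18 with stress and saline, so that the ratio is poorly determined.

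**Figure D2:**
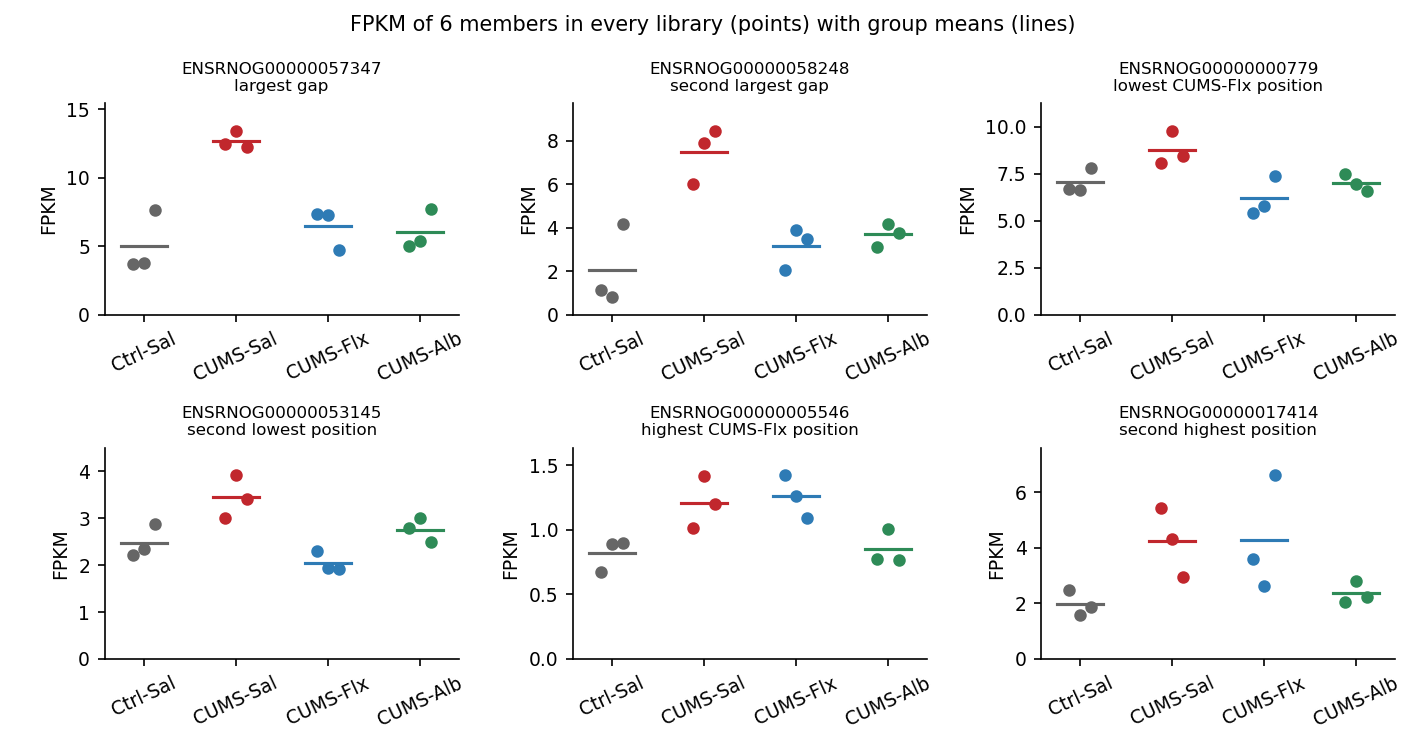
FPKM (y axis, from 0) of 6 members in each library (points, replicates 1 to 3 from left to right) with the mean of each group (lines). The upper left and upper middle genes have the widest gaps, with CUMS-Sal at 12.2 to 13.4 and 6.03 to 8.45 FPKM; the others have the lowest and highest CUMS-Flx position between Ctrl-Sal and CUMS-Sal.

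Large ratios went together with a wide spread among the unstressed libraries. In the 18 members with a ratio of 2 or more, the highest Ctrl-Sal library was a median of 4.35 times the lowest, against 1.41 times within CUMS-Sal, 1.32 within CUMS-Alb and 1.59 within CUMS-Flx. Ctrl-Sal replicate 2 was the lowest of its group in 13 of the 18 and Ctrl-Sal replicate 3 the highest in 14. Without Ctrl-Sal replicate 2 the median ratio of these genes was 2.30 in place of 2.87, and 15 kept a ratio of at least 2. In the 130 other members the highest Ctrl-Sal library was a median of 1.27 times the lowest. The 18 were also short, with a median of 791 bp against 1808 bp, and 11 of them had fewer than 50 reads per library on average. In the 130 others a ratio of at least 1.2 was kept without Ctrl-Sal replicate 2 in 114.

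Sorted by where CUMS-Alb fell, 105 members kept between 25 and 50% of the distance from Ctrl-Sal to CUMS-Sal, 30 kept 0 to 25%, and in 13 the CUMS-Alb mean was below the Ctrl-Sal mean. The median position was 33.6% of that distance. In 137 of 148 the log2 difference of CUMS-Alb from Ctrl-Sal was above 0, with a median of 0.15 where all rows had 0.09. That median was 0.02 both with library medians set equal (all rows -0.03) and with quantile normalization (all rows -0.02), so most of it moved with the scaling of the libraries. In 29 members all CUMS-Alb libraries lay above all Ctrl-Sal libraries, where 26.7% of all genes did so, and in 1 they lay below, against 6.78% of all genes. The rule held the CUMS-Alb mean below the midpoint and chose on Ctrl-Sal, so both counts carry the choice and are a description. The lowest position, -46.0%, was that of a 306 bp gene with 15, 14 and 20 reads in CUMS-Sal and 11, 12 and 9 in CUMS-Alb.

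The edges of the rule were crowded. On the ratio, the 3 members nearest the limit of 1.2 had 1.201, 1.204 and 1.206, and the nearest genes outside had 1.199, 1.196 and 1.194, with 105 genes missing the rule by the ratio alone. On the midpoint, the nearest members inside had CUMS-Alb at 49.9, 49.9 and 49.8% of the way and the nearest genes outside at 50.1, 50.2 and 50.5%, with 165 genes missing by the midpoint alone. The gap itself was small for many members. It had a median of 0.07 on the log2(FPKM + 0.5) scale and ran from 0.0005 to 0.63. In 114 members it was smaller than the counting SD of the reads of those libraries, and in 9 it was more than 2 such SDs.

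CUMS-Sal enters the rule on both sides, once against Ctrl-Sal and once against CUMS-Alb, so a gene whose CUMS-Sal libraries happened to read high returns with any other group. The steps of the rule show how much return there was. Of the 12750 genes, 3491 (27.4%) had all CUMS-Sal libraries above all Ctrl-Sal libraries, and in 448 of those (12.8%) they also lay above all CUMS-Alb libraries. If the CUMS-Sal, Ctrl-Sal and CUMS-Alb libraries were interchangeable, 23.8% of genes with CUMS-Sal above Ctrl-Sal would have it above CUMS-Alb too, counted from the possible orders of the libraries. The observed return was thus below that share, which assumes no effect of stress at all. The same assumption puts CUMS-Sal above both other groups in 1.19% of orders, where 3.51% of all genes had it there. With only CUMS-Sal and CUMS-Alb interchangeable, CUMS-Sal would lie above CUMS-Alb in 5% of the orders of those libraries. That share takes no account of the choice of high CUMS-Sal values. The observed 12.8% lay between 5 and 23.8%, so neither share is a measure of chance return here. With the ratio of 1.2 added, 2475 genes were raised, and 148 of them (5.98%), or 1.16% of all genes, met the whole rule.

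With CUMS-Flx put in place of CUMS-Alb, the same CUMS-Sal and Ctrl-Sal libraries gave more genes. CUMS-Sal lay above all CUMS-Flx libraries in 1063 of the 3491 genes (30.4%), and 607 of the 2475 raised genes (24.5%) met the whole rule. For genes lowered by stress, with every inequality turned round, 32 of 356 (8.99%) met the rule with CUMS-Alb and 59 of 356 (16.6%) with CUMS-Flx. These counts share the CUMS-Sal and Ctrl-Sal libraries, and their differences were not tested. They used the values as deposited, and the rule with CUMS-Flx was not repeated with other scaling. Over all rows the median log2 difference from CUMS-Sal was -0.053 in CUMS-Flx and -0.010 in CUMS-Alb. With library medians set equal these medians were 0.013 and 0.006, and the part of library scaling in the counts was not tested.

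Among the 9 libraries of the rule, it was the unstressed group that most often stood alone. All Ctrl-Sal libraries lay below both other groups in 2411 genes (18.9%) and above them in 453 (3.55%). CUMS-Sal stood above both others in 448 genes (3.51%) and below in 136 (1.07%). CUMS-Alb stood above both in 264 genes (2.07%) and below in 102 (0.8%). In the values as deposited, the members' pattern, with the stressed saline group apart, was thus less frequent than that with these 2 stressed groups together away from Ctrl-Sal. In those values the median log2 difference of CUMS-Sal from Ctrl-Sal over all rows was 0.10. With library medians set equal it was -0.04, and the patterns were not counted again on that scale.

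Genes were also chosen without 1 library, which was then read. Only that library is unused: the libraries it is set against were still selected, low in Ctrl-Sal and CUMS-Alb or high in CUMS-Sal. A left-out library can therefore fall on the rule's side more often than over all genes without any difference of its own, and the shares are a description. Without CUMS-Sal replicate 1, 396 genes met the rule, and the left-out library lay above all Ctrl-Sal and CUMS-Alb libraries in 157 of them (39.6%). Without replicate 2 this held in 139 of 310 (44.8%) and without replicate 3 in 146 of 270 (54.1%). Over all genes the corresponding shares were 19.6, 20.7 and 21.4%. The left-out CUMS-Sal library stood a median of 0.06, 0.10 and 0.13 log2 units above the CUMS-Alb mean of those genes, while the CUMS-Sal libraries used in the choice stood 0.28, 0.27 and 0.28 above it and all genes 0.01, 0.00 and 0.02. The difference from the CUMS-Alb mean was thus smaller in each left-out CUMS-Sal library than in the CUMS-Sal libraries that chose the genes. Its direction is not independent of the choice, since the CUMS-Alb libraries were selected to be low.

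For CUMS-Alb the left-out library lay below all CUMS-Sal libraries in 56.4, 73.4 and 74.1% of the genes chosen without replicates 1, 2 and 3, against 20.7, 28.5 and 28.7% of all genes. For Ctrl-Sal the shares were 87.1, 87.1 and 83.9% against 50.2, 53.8 and 43.9%. The groups cannot be ranked by these shares, because a CUMS-Sal library had to exceed the libraries of both other groups and the others only had to lie below CUMS-Sal, and the shares over all genes differ in the same order.

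**Figure D3:**
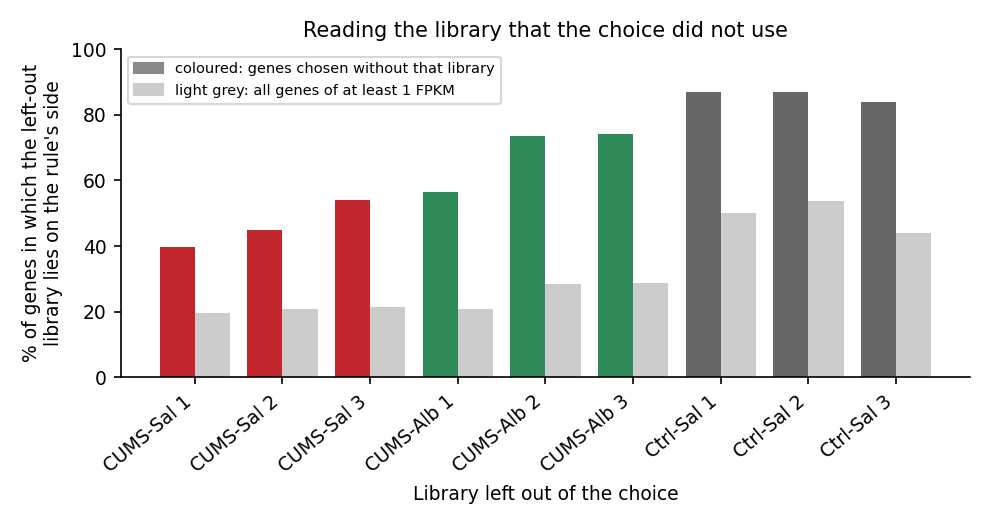
Share of genes (y axis, %) in which the library named on the x axis lies on the rule's side, for genes chosen without that library (coloured) and for all genes of at least 1 FPKM (light grey). For CUMS-Sal the rule's side is above all Ctrl-Sal and CUMS-Alb libraries (39.6 to 54.1%), and for the other groups it is below all CUMS-Sal libraries (56.4 to 87.1%).

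A wider look at stress-raised genes places the members against the typical gene. Genes raised over Ctrl-Sal without the use of CUMS-Sal replicate 1, 2 or 3 numbered 3020, 2706 and 2794. In them the left-out CUMS-Sal library reached a median of 76.5, 99.4 and 89.0% of the distance from Ctrl-Sal to the CUMS-Sal libraries used, and the CUMS-Alb mean 80.9, 84.4 and 84.1%. At the median, CUMS-Alb thus stood above the left-out CUMS-Sal library for replicate 1 and below it for replicates 2 and 3. CUMS-Flx stood at 54.7, 57.2 and 58.4% in the same genes. All these positions used the values as deposited and were not repeated with library medians set equal.

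CUMS-Flx entered the choice of the members only through the minimum mean of 1 FPKM over all 12 libraries. Its level in the members was nearer to CUMS-Alb than to CUMS-Sal. The CUMS-Flx mean lay a median of 28.9% of the way from Ctrl-Sal to CUMS-Sal, with quartiles of 9.40 and 45%. Taken library by library the median position was 14.1, 27.4 and 44.8% in replicates 1, 2 and 3. It was below the Ctrl-Sal mean in 19 members, at 0 to 50% in 98, at 50 to 100% in 28 and at or above the CUMS-Sal mean in 3. In the 2327 other raised genes the median was 61.6%, and 816 of them (35.1%) lay below 50%, against 117 of the 148 members (79.1%). Members and other raised genes were separated by how CUMS-Sal compared with CUMS-Alb, which also selects high CUMS-Sal values, so this contrast is a description.

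All CUMS-Flx libraries lay below all CUMS-Sal libraries in 102 members, where 14.0% of all genes and 29.4% of the other raised genes did so. They lay above all Ctrl-Sal libraries in 24, against a background of 12.7%. CUMS-Alb and CUMS-Flx overlapped in 132 members, with CUMS-Alb below in 5 (background 3.18%) and above in 11 (background 10.8%), shares near those of all genes.

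**Figure D4:**
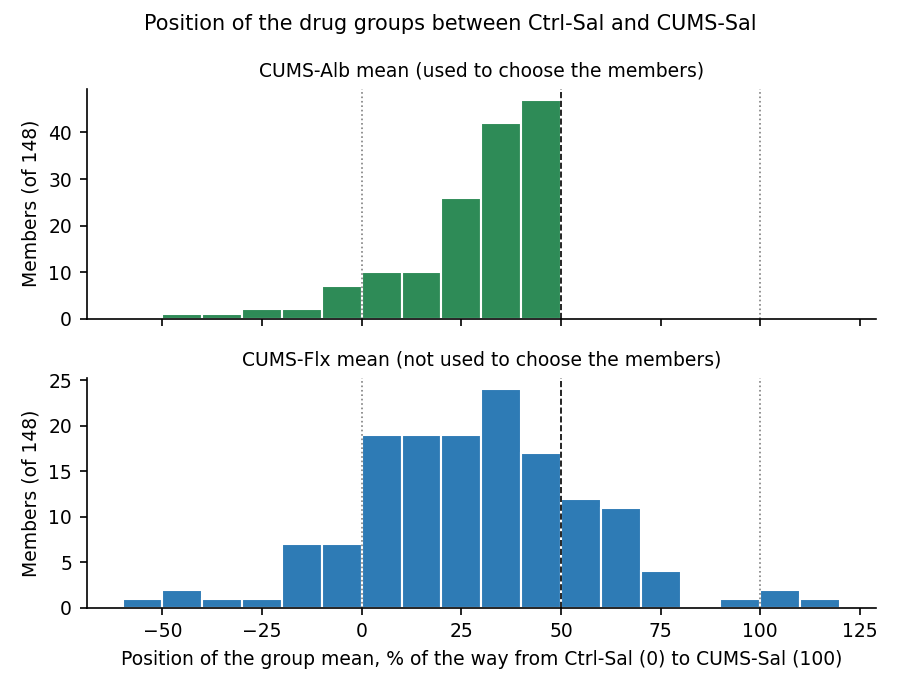
Number of members (y axis) by the position of the CUMS-Alb mean (top) and the CUMS-Flx mean (bottom) between Ctrl-Sal, at 0%, and CUMS-Sal, at 100%, with the midpoint dashed. The rule ends the upper panel at 50%. It set no limit on the position in the lower panel, where CUMS-Flx counted only toward the minimum mean over 12 libraries. The lower panel runs from -50.5 to 113%, with 28 members between 50 and 100% and 3 at or above 100%.

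The CUMS-Flx position of single members ran over a wide range, and the genes described next are the extremes of the 148. How much of that range is noise was not tested. ENSRNOG00000000779, 538 bp long, had the lowest position. It measured 6.69, 6.65 and 7.84 FPKM in Ctrl-Sal, 8.07, 9.79 and 8.46 in CUMS-Sal, 5.41, 5.78 and 7.39 in CUMS-Flx and 7.47, 6.96 and 6.58 in CUMS-Alb. The reads behind these values were 50 to 81 per library, and the ratio of CUMS-Sal to Ctrl-Sal was 1.24. All CUMS-Flx libraries lay below CUMS-Sal, and 2 of the 3 lay below every Ctrl-Sal library (log2 difference from CUMS-Sal -0.48, SE 0.12, limma adjusted p = 0.334).

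ENSRNOG00000053145, of 1443 bp and with 47 to 87 reads per library, came next. It stood at 2.21, 2.35 and 2.88 FPKM in Ctrl-Sal, at 3.01, 3.92 and 3.42 in CUMS-Sal and at 2.30, 1.95 and 1.91 in CUMS-Flx. Its CUMS-Alb libraries, at 2.79, 3.00 and 2.49 FPKM, all lay above CUMS-Flx, and the highest of them lay just below the lowest CUMS-Sal library. Of all members it had the smallest p in CUMS-Flx against CUMS-Sal (log2 difference -0.63, SE 0.13, limma adjusted p = 0.298).

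At the other end, ENSRNOG00000005546 was as high with fluoxetine as with saline under stress. It measured 1.01, 1.42 and 1.2 FPKM in CUMS-Sal and 1.42, 1.27 and 1.1 in CUMS-Flx, against 0.772, 1.01 and 0.768 in CUMS-Alb and 0.673, 0.888 and 0.902 in Ctrl-Sal. These rest on 15 to 37 reads per library. The mean of this gene over all 12 libraries was 1.04 FPKM, just above the minimum of 1 FPKM. Without the CUMS-Flx libraries that mean would lie under the minimum. Its high level with fluoxetine was therefore part of what admitted the gene. ENSRNOG00000017414 measured 5.44, 4.32 and 2.93 FPKM in CUMS-Sal and 3.6, 2.61 and 6.61 in CUMS-Flx. Its CUMS-Alb libraries were at 2.04, 2.82 and 2.24 FPKM and its Ctrl-Sal libraries at 2.48, 1.59 and 1.85, so that the lowest CUMS-Flx library lay inside the CUMS-Alb range. For the pair, CUMS-Alb differed from CUMS-Flx by -0.39 (SE 0.14) and -0.66 (SE 0.27) on the log2 scale, with a limma adjusted p of 0.955 for each.

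Tests of single genes ran over 15253 rows of at least 0.5 FPKM, which all 148 members passed, with Benjamini-Hochberg adjustment over all of them. In the comparisons with CUMS-Flx no member was called by limma at an adjusted p under 0.05. Against CUMS-Sal the median log2 difference of the members was -0.29, below 0 in 146 of 148, and over all rows it was -0.05. Unadjusted p was under 0.05 in 84 members, against 9.98% of all rows, of which 0% were called. Against Ctrl-Sal the members' median was 0.13 (all rows 0.05). It was 0.05 (all rows -0.03) with library medians set equal and 0.07 (all rows -0.01) with quantile normalization. In the fit to the values as deposited 32 members had an unadjusted p under 0.05 (background 17.5%, called 0.0524%), and the smallest adjusted p was 0.0925. Between CUMS-Alb and CUMS-Flx the members' median was 0.03 (all rows 0.04), and -0.02 or -0.04 with library medians set equal or quantile normalization. There 7 members had an unadjusted p under 0.05 (background 4.98%, called 0.00656%), and the smallest adjusted p was 0.955. Limma-voom on the recovered reads, which tested 146 of the members, also called 0 in each of these comparisons. Of all 15678 rows it called 0, 54 and 1 in the same order. CUMS-Sal, Ctrl-Sal and CUMS-Alb values carry the choice of the members into these numbers, so the counts describe the members and are not independent of their choice.

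In the contrasts that the rule itself used, an excess of the members over the background was fixed by the choice, so nothing is read from the counts that follow. There 70 members were called higher in CUMS-Sal than in Ctrl-Sal by limma, where 8.05% of all rows were called higher and 9.19% in either direction, and 140 had an unadjusted p under 0.05 (background 30%). Their median log2 difference was 0.40, beside 0.10 for all rows. With library medians set equal the medians were 0.27 and -0.04, 22 members were called, and the calls over all rows were 348 higher and 653 lower in place of 1228 and 174. The number of members called was 0 without CUMS-Sal replicate 2, 3 without replicate 3, 16 without replicate 1 and 29 without Ctrl-Sal replicate 2. Over all 15253 rows the same settings called 1, 24, 327 and 369. Between CUMS-Alb and CUMS-Sal 0 members were called (0% of all rows), although CUMS-Alb lay wholly below CUMS-Sal in the members by the rule and in 6.62% of all genes. There 67 members had an unadjusted p under 0.05 (background 3.66%), the median log2 difference was -0.29, and limma-voom also called 0. Between CUMS-Alb and Ctrl-Sal 0 members were called (2.50% of all rows), with 25 at an unadjusted p under 0.05 (background 27.4%), and a smallest limma adjusted p of 0.0508. With library medians set equal 11 members had an unadjusted limma p under 0.05 (3980 of 15253 rows). With quantile normalization 12 did (3690 rows), and limma-voom called 1 member and 1221 of 15678 rows. Without Ctrl-Sal replicate 3, 13 members were called in CUMS-Flx and 19 in CUMS-Alb against Ctrl-Sal. Over all 15253 rows, 544 and 2356 were called there.

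The members had fewer reads and shorter lengths at the median than the other raised genes, which the rule did not ask for, although both ran over wide ranges. Their mean reads per library had a median of 134 and ran from 7.75 to 2885, while the other raised genes had a median of 393 and all genes of 392. Of raised genes with fewer than 100 reads 62 of 419 (14.8%) were members, of those with 100 to 300 reads 49 of 658 (7.45%), with 300 to 1000 reads 27 of 853 (3.17%) and with 1000 or more 10 of 545 (1.83%). With CUMS-Flx in the place of CUMS-Alb the shares in these classes were 31.0, 28.0, 25.3 and 14.1%. At every depth more raised genes met the rule with CUMS-Flx in the values as deposited, and the differences between classes were not tested.

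**Figure D5:**
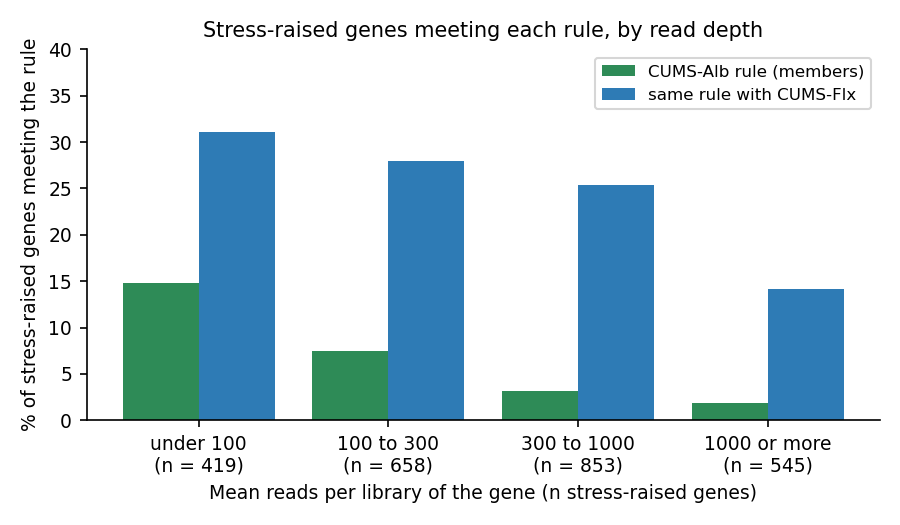
Share of the stress-raised genes (y axis, %) that met the rule with CUMS-Alb (green, the members) or with CUMS-Flx in its place (blue), by the mean reads per library of the gene (x axis). The share with CUMS-Alb runs from 14.8% under 100 reads to 1.83% at 1000 or more, and that with CUMS-Flx from 31.0 to 14.1%.

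By length, 71 members (48.0%) had up to 1600 bp and 31 (20.9%) more than 2800 bp, against 22.7 and 42.2% of the other raised genes and 31.9 and 33.6% of all genes. The median length was 1676 bp in the members and 2513 bp in the other raised genes. Among raised genes with fewer than 300 reads, 15.7% of the short, 8.27% of the middle and 5.32% of the long genes were members. Among those with at least 300 reads the shares were 3.66, 2.95 and 2.19%. The shares were thus lower for longer genes in both classes of reads and were lower with more reads in each class of length. Neither difference was tested.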

How the data were processed

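RNA from rat hippocampus was sequenced in 12 libraries, 3 in each of 4 groups, which were taken from the sample titles. Values are FPKM that the authors deposited as 1 table; the unit was read from the values, because the header names none. Reads were aligned with TopHat2 to build rn6, per the submitters' processing notes. For the counter, annotation release and strand setting, nothing is stated in the labels or header, so reads of near-identical or overlapping genes cannot be set apart. Since low values step in whole reads, gene length and reads were recovered for 22737 of 22737 rows above 0 (whole within 0.0001 read), which gave 14735953 to 18109623 reads per library. That step and the model fit were checked on simulated data.

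The rule was applied with Python 3.11.15 and pandas 2.3.3. Differences were fitted with limma 3.58.1 (R 4.3.3; trend and robust) on log2(FPKM + 0.5), which understates changes of low genes, over rows of at least 0.5 FPKM and all 12 libraries, with Benjamini-Hochberg adjustment and a threshold of 0.05. Limma-voom on recovered reads and libraries with median deviations set to 0 were added after seeing the data. P-values measure only the spread between libraries. A position is a group mean's place between the Ctrl-Sal mean (0%) and the CUMS-Sal mean (100%).

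The members and all gene lists were chosen with earlier results of these data known. The lists of pathway genes and cell type markers could not be matched to IDs and were not tested, so the tissue label was not checked against markers. IDs were to be named for the members of largest ratio, widest gap, highest level and lowest or highest CUMS-Flx position; without symbols, 2 were named for the gap and 2 for each end of the CUMS-Flx position, and others are given by length.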

Additional observations from a re-analysis of the deposited data

How the results depend on the processing

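The number of genes chosen depended on every limit of the rule: 69 at a minimum of 5 FPKM, 230 at a ratio of 1.1, 45 at a ratio of 1.5 and 313 without the midpoint. With library medians set equal 94 were chosen, of which 64 were among the 148. Leaving out 1 library gave 143 (without Ctrl-Sal replicate 3) to 396 genes (without CUMS-Sal replicate 1). The members' median CUMS-Flx position was 32.7% on the log2 scale, 19.6% with medians set equal, and 21.3 to 36.0% without 1 CUMS-Flx library.

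Of the members, 70 were called by limma in CUMS-Sal against Ctrl-Sal, and of all 15253 rows 1402. The members' count was 15 with no filter on low values and 20 with quantile normalization. It was 22 with library medians set equal and 25 with median deviations set to 0. With only those groups fitted it was 0 (unadjusted p under 0.05 in 137), and at an adjusted p under 0.1 it was 127. Over all rows these settings called 251 of 22737, then 529, 1001, 743, 0 and 3173 of 15253. The members called ran from 0 to 83 without 1 library, the lowest without CUMS-Sal replicate 2, and the rows from 1 to 2637. In CUMS-Alb against Ctrl-Sal, 1 of 69 members was called at a minimum of 5 FPKM, where 996 of 9272 rows were. Limma-voom called 1 member and 1221 of 15678 rows. At a limma adjusted p under 0.1 it was 4 members and 2373 of 15253 rows. Without 1 library, 0 to 19 members and 0 to 2356 rows were called. In CUMS-Flx against Ctrl-Sal, 1 member and 129 of 15253 rows were called at a limma adjusted p under 0.1. Leaving out 1 library gave 0 to 13 members and 1 to 544 rows. The other 3 comparisons called 0 members under all 18 alternatives each, where 0 to 5 of all rows were called. The cause of these changes was not tested.

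With the replicate number as a block, 38 members were called in CUMS-Sal against Ctrl-Sal and 0 in the other comparisons. Of all 15253 rows, 565 were called there and 0 or 1 in each other comparison. Same-numbered libraries correlated from -0.159 to 0.127 in their deviations, over 0.1 in 1 of 18 pairs, so the numbers were not taken to pair the samples. Low reads limit the precision of many members, since 31 had fewer than 50 reads per library on average.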

Other observations

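The rows without an Ensembl ID, which the rule left out, held 848 with a mean of at least 1 FPKM. Of these 132 were raised by the same limits and 13 met the whole rule, which is 1.53% of them and 9.85% of the raised ones, beside 1.16 and 5.98% for Ensembl rows.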
